A study of Rattus norvegicus with 23 samples.

Results

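Polyamines are made and broken down by a short set of enzymes, and 10 genes that encode these enzymes and their regulators are described here in rat gastrocnemius muscle. The genes were chosen by symbol from the 18903 named entries of the count table, and all 10 were found. They are Odc1, Amd1, Srm and Sms on the side of synthesis, Smox, Sat1 and Paox on the side of breakdown, and Oaz1, Oaz2 and Azin1 as regulators. RNA was sequenced from 23 Wistar rats, 1 poly-A library per rat, after 14 weeks on standard chow or on a high-fat, high-sucrose (HFHS) diet that began at 4 weeks of age. The groups were Female Chow (n = 5), Female HFHS (n = 6), Male Chow (n = 6) and Male HFHS (n = 6). The ovaries of the females were removed when they were 12 weeks old and estradiol was supplied in their water. Some females of the study had only sham surgery, and whether any of them were sequenced is not given in the labels. Males kept their gonads, so sex cannot be told apart from surgery and hormone replacement.

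Polyamine synthesis starts with ornithine decarboxylase (Odc1), which turns ornithine into putrescine. S-adenosylmethionine decarboxylase (Amd1) supplies the aminopropyl groups that spermidine synthase (Srm) and spermine synthase (Sms) add to form spermidine and then spermine. Spermine oxidase (Smox) takes spermine straight back to spermidine, whereas the acetyltransferase Sat1 and the peroxisomal oxidase Paox act in turn to recycle or export polyamines. Antizymes, encoded by Oaz1 and Oaz2, bind ornithine decarboxylase and send it to the proteasome, and the antizyme inhibitor (Azin1) takes the antizymes away from it. Antizyme synthesis itself needs a ribosomal frameshift that polyamines promote, so these proteins can change without a change in mRNA. In mice, androgens raise Odc1, Amd1 and Smox mRNA in skeletal muscle, and Smox falls in denervated or immobilized muscle.

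Library totals ran from 29337432 to 51305339 in Female Chow, 21152241 to 44633229 in Female HFHS, 32023984 to 39261382 in Male Chow and 29645560 to 50170740 in Male HFHS. No 2 of the 23 libraries were identical. Muscle fiber genes (8 found of 10 listed) held 204276 to 277954 CPM in every rat, but single fiber genes varied more. Myh7, the myosin gene of slow fibers, ran from 196 CPM in Female Chow rat 205 and 262 CPM in Male Chow rat 111 to 10808 CPM in Male Chow rat 112, and Actn3, a gene of fast fibers, from 5466 to 19056 CPM. The diet in the sample title and the diet code of the count column disagreed for 3 female rats. Rat 205 was chow by code and HFHS by title, and rats 224 and 225 were HFHS by code and chow by title. The codes were used, so the direction of each diet difference in either sex rests on these codes. Genes listed as hepatocyte markers moved with sex. All 20 listed were called lower in males (calls are defined at the end of this paragraph), beside 5.17% of all genes. Their summed level was 289 to 553 CPM in Female Chow, 44.2 to 483 CPM in Female HFHS, 41.1 to 81.8 CPM in Male Chow and 38.8 to 61.8 CPM in Male HFHS. None of the 20 was at 0 in all rats of a group. Tf made up most of the male sums, with means of 38.6 CPM in Male Chow and 38.7 CPM in Male HFHS, beside 85.2 CPM in Female Chow and 58.6 CPM in Female HFHS. Alb had means of 5.39, 1.26, 242 and 108 CPM in these groups in the same order. Endothelial genes moved the other way, with 6 of 6 measured called higher in males, beside 3.8% of all genes. Their summed levels were 206 to 284 CPM over all females and 265 to 356 CPM over all males. Of the mast cell genes, 4 of 6 were called lower in males, beside 5.17% of all genes. All levels are CPM, counts relative to library totals scaled by the trimmed mean of M values (TMM), and differences are log2 values fitted by edgeR over all 23 rats. A gene is called at a p-value under 0.05 after adjustment over all 13365 genes tested.

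The RefSeq promoter table (build GRCr8) held 9 of the 10 genes, all but Azin1. The 250 bases before the annotated start of Smox are shown because Smox was the gene called by sex. They held none of the 4 motifs searched on both strands, which were the E-box CACGTG bound by Myc proteins, the androgen half-site TGTTCT, the TATA box TATAAA and the cAMP response element TGACGTCA.
Smox, chr3:139204351-139204600 (+): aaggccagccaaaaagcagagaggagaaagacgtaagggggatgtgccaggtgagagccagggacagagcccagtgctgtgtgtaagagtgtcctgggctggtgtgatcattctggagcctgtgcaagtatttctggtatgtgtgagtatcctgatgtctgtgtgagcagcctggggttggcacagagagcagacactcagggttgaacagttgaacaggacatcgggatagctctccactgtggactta

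Further windows are shown because they hold the matches found among the polyamine genes, with the motif in capitals. The E-box stood 173 bases before the start of Srm and 234 bases before that of Oaz1, and the TATA box 29 bases before the start of Amd1 and 28 bases before that of Oaz1. Of all 33469 promoters of this length in the table, 5.59% held the E-box and 12.9% the TATA box. The androgen half-site (17.5% of promoters) and the cAMP response element (1.59%) had no match in the 9 windows. A match describes these letters only, and the start used in muscle was not measured.
Srm E-box, chr5:164308807-164308856 (+): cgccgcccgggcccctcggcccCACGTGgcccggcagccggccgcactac
Oaz1 E-box, chr7:9537197-9537240 (-): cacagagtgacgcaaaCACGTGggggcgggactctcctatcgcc
Amd1 TATA box, chr20:45265984-45266033 (-): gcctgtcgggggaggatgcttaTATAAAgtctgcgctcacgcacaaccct
Oaz1 TATA box, chr7:9536991-9537040 (-): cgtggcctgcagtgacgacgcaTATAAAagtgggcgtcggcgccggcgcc

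Smox, the spermine oxidase gene, was lower in males than in females, and it was the one polyamine gene of the 9 tested that was called by sex. Over all genes tested, 8.97% were called by sex, so 1 call among 9 is near the background share. Smox lies on chromosome 3 of rn6 (124068865 to 124102240, plus strand) and had 213 to 587 counts per rat. In Female Chow the Smox level was 11.3, 9.84, 9.73, 9.22 and 11.6 CPM in rats 205, 213, 214, 228 and 229. In Female HFHS it ran from 9.66 CPM through a median of 11.9 CPM to 13.0 CPM. In Male Chow the lowest, median and highest levels were 6.57, 8.56 and 11.3 CPM, and in Male HFHS 8.12, 8.83 and 11.0 CPM. Thus the sexes overlapped (they did not for 0.142% of all genes), but all 12 males lay below the female median, 7 of 12 males lay below every female and 6 of 11 females lay above every male. The mean Smox level was 11.0 ± 1.31 CPM in females (SD, n = 11) and 9.03 ± 1.42 CPM in males (SD, n = 12). The fitted difference, males minus females, was log2 −0.28 (standard error 0.08, 95% interval −0.45 to −0.12, edgeR adjusted p = 0.0287).

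**Figure D1:**
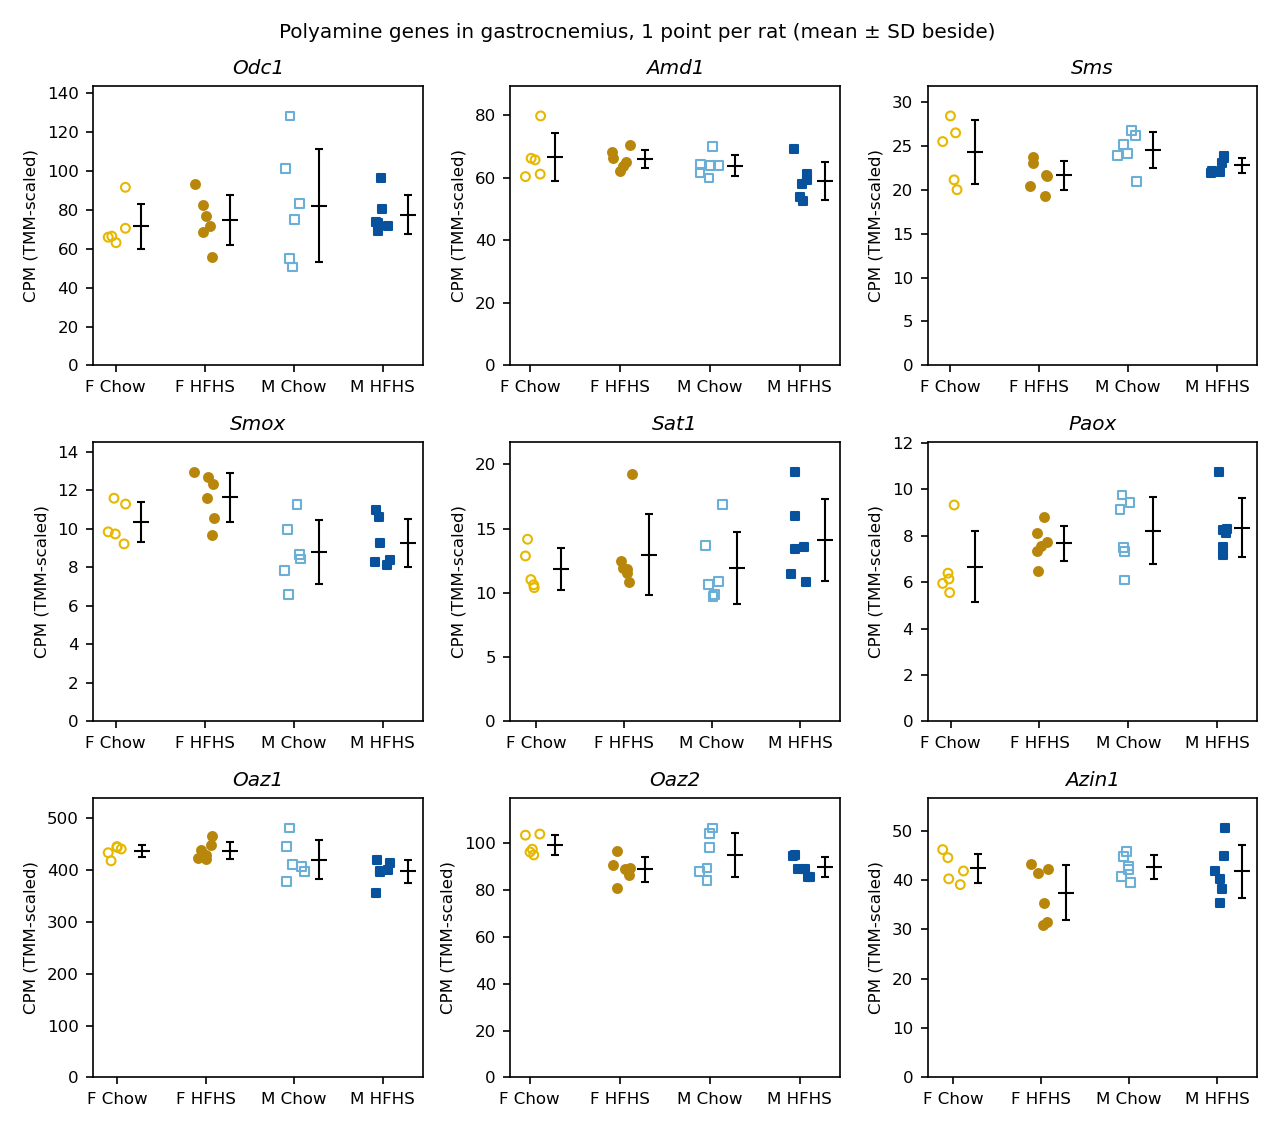
Level of each of the 9 tested polyamine genes in CPM (vertical axes from 0, scaled per gene), with 1 point per rat for the 4 groups, open for chow and filled for HFHS, and the mean ± SD beside each group. In the Smox panel all 12 males lie below the female median, whereas in the Odc1 panel the Male Chow rats alone run from 50.6 to 128 CPM.

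The call on Smox was lost when Female Chow rat 229 was left out (log2 −0.25, edgeR adjusted p = 0.0612) and when the hepatocyte marker level entered the model as a covariate (log2 −0.30, edgeR adjusted p = 0.458). That covariate also took the number of all genes called by sex from 1199 to 38. Its 20 markers were all lower in males, so the hepatocyte level and sex cannot be fully told apart in this fit. The 3 Female HFHS rats with the lowest hepatocyte sums, rats 209, 202 and 225 with 44.2, 56.7 and 85.8 CPM, had Smox levels of 12.7, 13.0 and 12.3 CPM. These were the 3 highest Smox levels of the 23 rats, though the title of rat 225 names chow. Over all rats, Smox and the mean hepatocyte marker level had a Pearson r of −0.03 within groups. With the level of Myh7 as a covariate, chosen after seeing the data, Smox stayed called (log2 −0.31, edgeR adjusted p = 0.00348). Myh7 had means of 4879 CPM in Female Chow, 6038 CPM in Female HFHS, 4870 CPM in Male Chow and 4737 CPM in Male HFHS. The part of fiber makeup in the Smox difference was not tested by this fit. Actn3, with r 0.70 to Smox within groups, ran from 11054 to 14367 CPM in Female HFHS and from 5466 to 10606 CPM in Male HFHS. On chow its ranges overlapped, at 11360 to 16930 CPM in females and 6010 to 19056 CPM in males. The part of Actn3 in the Smox difference was not tested. Without the 3 rats whose labels conflict, the Smox difference was log2 −0.28 with an edgeR adjusted p of 0.0486. The part of the endothelial and mast cell genes in the Smox difference was not tested. Fewer cells of a type and less RNA per cell cannot be told apart in whole muscle.

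On the side of synthesis, neither Odc1, Amd1 nor Sms was called by sex. Odc1, the gene of the first enzyme (chromosome 6, 42852683 to 42859927, plus strand), had levels of 63.1, 70.5, 65.9, 91.6 and 66.5 CPM in Female Chow rats 205, 213, 214, 228 and 229. Its lowest, median and highest levels were 55.8, 74.3 and 93.2 CPM in Female HFHS, 50.6, 79.1 and 128 CPM in Male Chow, and 69.2, 73.5 and 96.5 CPM in Male HFHS. Both the lowest and the highest Odc1 levels of all rats were in Male Chow, and this range covered every female. The sex difference of Odc1 was log2 0.13 (standard error 0.13, 95% interval −0.14 to 0.39, edgeR adjusted p = 0.596). Differences above log2 0.39 or below log2 −0.14 thus lay outside its interval.

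Amd1 (chromosome 20, 45384000 to 45399694, minus strand), whose product commits S-adenosylmethionine to polyamines, had levels of 79.8, 61.2, 65.7, 66.2 and 60.4 CPM in the same 5 Female Chow rats. The lowest, median and highest Amd1 levels were 62.1, 65.7 and 70.4 CPM in Female HFHS, 59.9, 63.9 and 70.0 CPM in Male Chow, and 52.6, 58.6 and 69.3 CPM in Male HFHS. The groups overlapped, with 5 of 12 males below every female and 2 of 11 females above every male. The Amd1 difference was log2 −0.11 (standard error 0.05, unadjusted p = 0.0354, edgeR adjusted p = 0.172). Sms, the spermine synthase gene on chromosome X (40363646 to 40415109, plus strand), ranged from 19.2 to 28.4 CPM in females and from 20.9 to 26.8 CPM in males, with a difference of log2 0.04 (95% interval −0.07 to 0.16).

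Srm, the spermidine synthase gene on chromosome 5 (165405168 to 165408320, plus strand), fell under the filter on low counts of the main analysis. It had 1 to 12 counts per rat, with a median of 7 and levels of 0.0339 to 0.275 CPM. The group means of Srm were 0.192 CPM in Female Chow, 0.231 CPM in Female HFHS, 0.183 CPM in Male Chow and 0.135 CPM in Male HFHS. With a lower filter, a mean count above 0.1, which keeps 17323 genes, Srm was tested and was not called by sex (log2 −0.39, standard error 0.26, edgeR adjusted p = 0.427), by diet in females (log2 0.25, standard error 0.37, edgeR adjusted p = 0.940) or by diet in males (log2 −0.43, standard error 0.37, edgeR adjusted p = 0.819). A second entry, LOC100912604, annotated as similar to spermidine synthase, also had only 0 to 13 counts per rat. How the counting treated reads shared by near-identical sequences is not given in the sources used here. RefSeq lists 10 pseudogenes of Odc1, 3 of Amd1, 2 of Sms and 2 of Oaz1, so counts of these genes may be split or joined with copies.

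Among the breakdown genes other than Smox, Paox and Sat1 were not called by sex. Paox (chromosome 1, 212578450 to 212603529, plus strand), the polyamine oxidase gene, had levels of 5.94, 6.38, 6.13, 9.32 and 5.55 CPM in Female Chow rats 205, 213, 214, 228 and 229. Its lowest, median and highest levels were 6.49, 7.62 and 8.80 CPM in Female HFHS, 6.09, 8.32 and 9.75 CPM in Male Chow, and 7.16, 8.19 and 10.7 CPM in Male HFHS. Of the males, 9 of 12 lay above the female median, yet 1 Female Chow rat lay within the upper male range. The Paox difference was log2 0.21 (standard error 0.09, unadjusted p = 0.0311, edgeR adjusted p = 0.158). Without Female Chow rat 228 it was log2 0.29 and was called (edgeR adjusted p = 0.0343), and with the hepatocyte covariate it was log2 −0.022 (edgeR adjusted p = 0.975). Paox overlaps LOC100911186 on the other strand. Sat1, the acetyltransferase gene on chromosome X (43625169 to 43629765, plus strand), ranged from 10.4 to 19.3 CPM in females and from 9.69 to 19.4 CPM in males, so both sexes covered nearly the same range. Its difference was log2 0.07 (95% interval −0.17 to 0.31).

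Of the regulators, neither antizyme gene nor Azin1 was called by sex. Oaz1 (chromosome 7, 11752412 to 11754508, minus strand), the main antizyme gene, had 8829 to 21180 counts per rat. Its level was 441, 444, 434, 446 and 418 CPM in Female Chow rats 205, 213, 214, 228 and 229. The lowest, median and highest Oaz1 levels were 422, 434 and 465 CPM in Female HFHS, 378, 409 and 482 CPM in Male Chow, and 356, 400 and 420 CPM in Male HFHS. Of the males, 9 of 12 lay below every female, while 1 Male Chow rat had the highest Oaz1 level of all. The Oaz1 difference by sex was log2 −0.10 (standard error 0.04, unadjusted p = 0.0249, edgeR adjusted p = 0.138). Oaz2, a second antizyme gene on chromosome 8 (71216178 to 71228713, plus strand), ranged from 80.8 to 104 CPM in females and from 84.1 to 106 CPM in males (log2 −0.02, 95% interval −0.11 to 0.06). Azin1, the antizyme inhibitor gene on chromosome 7 (77345646 to 77372398, minus strand), ranged from 31.0 to 46.2 CPM in females and from 35.3 to 50.6 CPM in males (log2 0.09, 95% interval −0.05 to 0.22).

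By direction alone, 5 of the 9 tested genes had a fitted level higher in males and 4 lower, with a median of log2 0.04 beside 0.00 over all genes. At an unadjusted p under 0.05, 4 of 9 passed (Smox, Oaz1, Paox and Amd1), beside 23.5% of all genes.

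**Figure D2:**
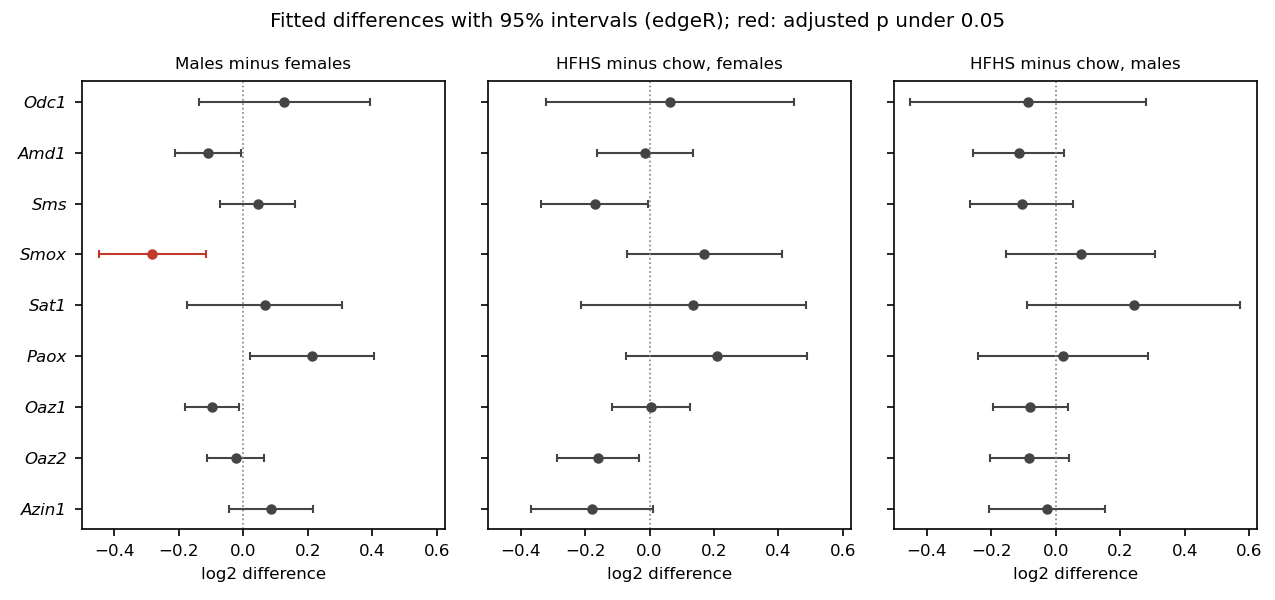
Fitted log2 difference (horizontal axes) of the 9 tested polyamine genes with 95% intervals, for males minus females, for HFHS minus chow in females and for HFHS minus chow in males, with red points where the adjusted p is under 0.05. Smox by sex (log2 −0.28) is the one red point, and the Odc1 and Sat1 intervals are wider than those of Oaz1 and Oaz2.

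Within each diet, 0 of the 9 genes were called by sex. On chow, 1.72% of all genes were called and the lowest edgeR adjusted p among the polyamine genes was 0.363, for Paox (log2 0.31). On HFHS, 4.83% of all genes were called, and Smox came nearest (log2 −0.33, standard error 0.11, edgeR adjusted p = 0.0884). It was called there with the Myh7 covariate (log2 −0.37, edgeR adjusted p = 0.0171). Smox on chow was log2 −0.24 (standard error 0.12, edgeR adjusted p = 0.432), so the estimate had the same sign on both diets. At an unadjusted p under 0.05, 1 of 9 passed on chow and 3 of 9 on HFHS, beside 11.9% and 19.9% of all genes, and neither DESeq2 nor limma-voom called any of the 9. On chow the sexes overlapped for each of the 9 genes (they did not for 2.17% of all genes), and on HFHS for each but Oaz1. Male HFHS rats had Oaz1 levels of 356 to 420 CPM and Female HFHS rats 422 to 465 CPM, and the groups did not overlap for 3.11% of all genes in this comparison. The Oaz1 difference was log2 −0.14 (standard error 0.06, edgeR adjusted p = 0.158), which did not pass. Actn3, with r 0.59 to Oaz1 within groups, likewise did not overlap on HFHS (5466 to 10606 CPM in males, 11054 to 14367 CPM in females). Its part in the Oaz1 levels was not tested. With the diets of the sample titles in place of the codes, Amd1 on HFHS was called (log2 −0.23, edgeR adjusted p = 0.0293).

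No polyamine gene was called by diet. In females 0 of 9 were called, beside 0.015% of all genes, and the lowest edgeR adjusted p was 0.634, for Oaz2. Oaz2 levels were 104, 97.4, 94.9, 96.2 and 103 CPM in Female Chow rats 205, 213, 214, 228 and 229, and 80.8, 89.1 and 96.7 CPM were the lowest, median and highest levels in Female HFHS. Most Female HFHS rats lay below the Female Chow rats, but the ranges overlapped between 94.9 and 96.7 CPM. The Oaz2 diet difference in females was log2 −0.16 (standard error 0.06, unadjusted p = 0.0165). Sms in females was 28.4, 26.5, 25.5, 20.0 and 21.1 CPM in the same Female Chow rats and 19.2, 21.6 and 23.7 CPM at its lowest, median and highest in Female HFHS. Its difference was log2 −0.17 (standard error 0.08, unadjusted p = 0.0459, edgeR adjusted p = 0.710), and it was log2 0.043 with the diets of the titles.

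In males 0 of 9 polyamine genes were called by diet, beside 0.0224% of all genes, and the lowest edgeR adjusted p was 0.705, for Amd1 (log2 −0.11, standard error 0.07). Sat1 had the largest male estimate (log2 0.24, standard error 0.16, edgeR adjusted p = 0.744), with Male Chow levels of 9.69, 10.8 and 16.9 CPM and Male HFHS levels of 10.9, 13.5 and 19.4 CPM at the lowest, median and highest. The diet groups overlapped for each of the 9 genes in males and in females, whereas 0.636% of all genes in males and 0.651% in females had diet groups that did not. Averaged over the sexes, 0 of 9 were called by diet, beside 0.0524% of all genes. The lowest unadjusted p values of that average belonged to Oaz2 (log2 −0.12, unadjusted p = 0.00945, edgeR adjusted p = 0.368) and Sms (log2 −0.14, unadjusted p = 0.0208, edgeR adjusted p = 0.447). At an unadjusted p under 0.05, the polyamine genes numbered 2 in females, 0 in males and 2 over both sexes, beside 6.96%, 7.91% and 9.77% of all genes. DESeq2 and limma-voom also called 0 of 9 in each of these comparisons.

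The interaction, which asks whether the diet difference in males departs from that in females, was called for 0 of 9 polyamine genes and for 0% of all genes. The lowest edgeR adjusted p among them was 0.983, and 0 of 9 had an unadjusted p under 0.05, beside 4.88% of all genes. DESeq2 and limma-voom called 0 of 9 as well. The interaction estimates ran from log2 −0.18 for Paox to 0.15 for Azin1. For Odc1 the interval of the interaction was log2 −0.68 to 0.38, and for Oaz1 it was −0.25 to 0.08, so the same design bounded the antizyme gene more closely than its target.

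The polyamine genes differed in how far single rats lay from their group. Odc1 varied the most, with a highest level 2.53 times the lowest and a within-group SD of log2 0.32. Sat1 followed with an SD of log2 0.29, Paox with 0.23 and Smox with 0.20. Azin1, Sms and Amd1 had an SD of log2 0.16, 0.13 and 0.12. Oaz2 and Oaz1 had the smallest within-group SD, log2 0.09 and 0.08, and their highest levels were 1.32 and 1.35 times the lowest. Antizyme mRNA was thus the steadiest between rats and the mRNA of its target enzyme the least steady.

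Rats that were high for one polyamine gene were not generally high for the rest. After subtraction of the group means, Odc1 and Smox ran opposite to each other over the 23 rats (Pearson r −0.56). The extremes show this in Male Chow, where rat 112 had the highest Odc1 level of all (128 CPM) and the lowest Smox level of all (6.57 CPM). The same rat had the highest Myh7 level of all, and rat 111, with the highest Smox level of Male Chow (11.3 CPM), the lowest Myh7 level of that group. Within groups Smox went with Actn3 (r 0.70) and ran opposite to Myh7 (r −0.63), while Odc1 ran opposite to Actn3 (r −0.62) and went with Myh7 (r 0.38). Oaz2 (r 0.67), Oaz1 (r 0.59), Amd1 (r 0.48) and Sms (r 0.44) also went with Actn3. The part of fiber makeup in the pairs given next was not tested. Odc1 went with Paox (r 0.52), Amd1 with Azin1 (r 0.47), and Smox with Oaz2 (r 0.44) and Oaz1 (r 0.42). Sat1 ran opposite to Oaz1 (r −0.51), and Sat1 also went with the log10 of total counts (r 0.56), a measure of depth, whose part in the Sat1 values was not tested. These values share libraries and scaling and are given as a description.

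**Figure D3:**
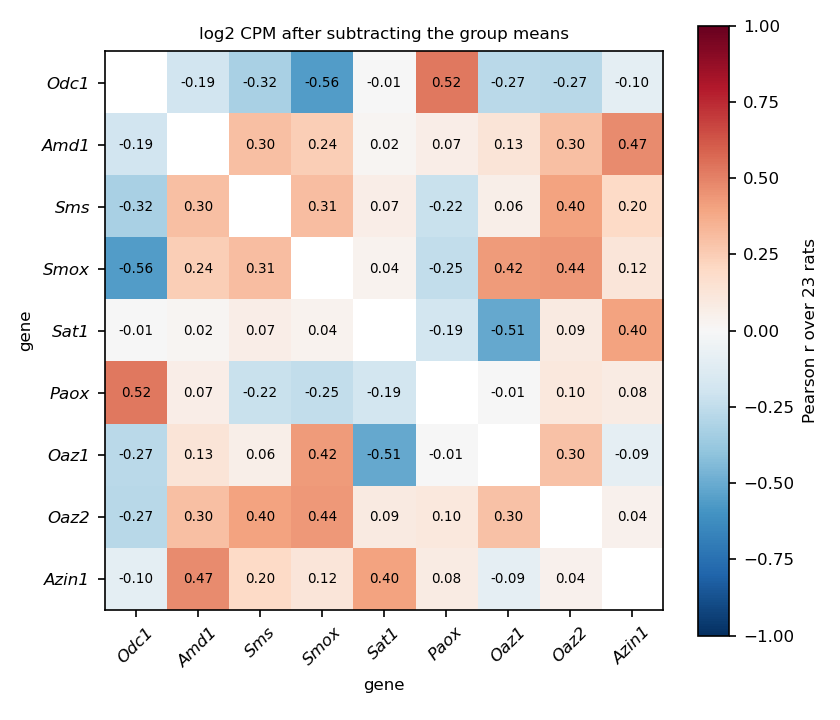
Pearson r between each pair of the 9 tested polyamine genes (both axes), from log2 CPM of 23 rats after subtracting the group means, with red for positive and blue for negative values on a scale from −1 to 1. The strongest negative pair is Odc1 with Smox (−0.56) and the strongest positive pair Odc1 with Paox (0.52).

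The genes most like Smox from rat to rat were looked for among 10740 tested genes with a symbol and a mean of at least 1 CPM. They were Ttc7a (r 0.81 over 23 rats), Creb1 (r 0.81, mean 2.04 CPM) and Trim24 (r 0.79). As the highest of so many values these are a description, and the part of fiber makeup in them was not tested. By sex, Ttc7a, Creb1 and Trim24 had log2 differences of −0.22, −0.12 and 0.02, with edgeR adjusted p values of 0.800, 0.632 and 0.889.

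Around these 10 genes, 36 further genes of the pathway were listed and 32 were tested. The list was drawn up with earlier results of these data known, so its shares of calls are a description. By sex, 6 of 32 were called, each lower in males, beside 5.17% of all genes called lower and 3.8% called higher. The median of the 32 was log2 −0.07. Arg1 and Oat, of 7 tested enzymes and antizyme genes around the core, feed and drain ornithine. Arg1, the urea cycle arginase, was at 0.881 CPM in females and 0.257 CPM in males on average (log2 −1.79, edgeR adjusted p = 0.000609). Oat, the mitochondrial ornithine aminotransferase gene, had levels of 131 to 196 CPM in Female Chow, 131 to 165 CPM in Female HFHS, 114 to 158 CPM in Male Chow and 106 to 135 CPM in Male HFHS. The Oat groups overlapped, and its difference was log2 −0.25 (standard error 0.06, edgeR adjusted p = 0.0189).

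Of 7 tested genes of polyamine transport, Slc3a2 was called lower in males. Slc3a2, the heavy chain of amino acid exchangers that also takes part in polyamine export, had means of 82.0 CPM in females and 70.7 CPM in males (log2 −0.21, edgeR adjusted p = 0.0280), and it was not called without Female Chow rat 205 (edgeR adjusted p = 0.0538). It was also called on HFHS alone (log2 −0.34, edgeR adjusted p = 0.0167), where Female HFHS levels were 73.0 to 109 CPM and Male HFHS levels 58.4 to 74.4 CPM. Of the 4 genes of hypusine formation, the step in which spermidine modifies the translation factor eIF5A, 0 were called by sex, and the smallest unadjusted p values were those of Dohh (log2 −0.09, edgeR adjusted p = 0.236) and Eif5a (log2 −0.06, edgeR adjusted p = 0.462).

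Of 14 genes of the methionine cycle and salvage, which supplies and recovers S-adenosylmethionine, 3 were called lower in males. Mat1a, the liver form of methionine adenosyltransferase, had means of 2.16 CPM in females and 0.0785 CPM in males (log2 −5.07, edgeR adjusted p = 5.92e-05), and Gnmt, a glycine methyltransferase of liver, 0.261 and 0.0490 CPM (log2 −2.45, edgeR adjusted p = 0.00524). Ahcy, which clears S-adenosylhomocysteine, had means of 68.3 CPM in females and 62.1 CPM in males (log2 −0.14, edgeR adjusted p = 0.0252), and it was not called without Female Chow rat 229 (edgeR adjusted p = 0.0569). Mat2a, the form found outside the liver, was not called (log2 −0.09, edgeR adjusted p = 0.574). Arg1, Mat1a and Gnmt are liver-rich genes and, like the hepatocyte sums given above, were higher in females. Within males Arg1 had medians of 0.213 CPM on chow (4 to 11 counts per rat) and 0.254 CPM on HFHS (3 to 26 counts per rat). The hepatocyte sums, mostly Tf in males, had medians of 49.6 and 42.9 CPM. Whether these genes followed the hepatocyte level from rat to rat was not tested. With the hepatocyte level as a covariate, 0 of the 6 calls remained, and the differences became log2 −0.30 for Arg1, −0.26 for Mat1a, −1.23 for Gnmt, −0.17 for Oat, −0.37 for Slc3a2 and −0.11 for Ahcy. As stated for Smox, this covariate cannot be fully told apart from sex. On chow 2 of 32 were called lower (Arg1 and Mat1a), beside 1.41% of all genes. On HFHS 3 of 32 were called lower (Slc3a2, Mat1a and Gnmt, the last not in 15 of 21 fits that left out 1 rat), beside 2.84% of all genes, and 0 higher, beside 1.99%. By diet and by the interaction, 0 of 32 were called in either sex. The pathway genes with the smallest p by diet were Eif5a in males (log2 −0.17, edgeR adjusted p = 0.532) and Mat1a in females (log2 −1.69, edgeR adjusted p = 0.655).

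**Figure D4:**
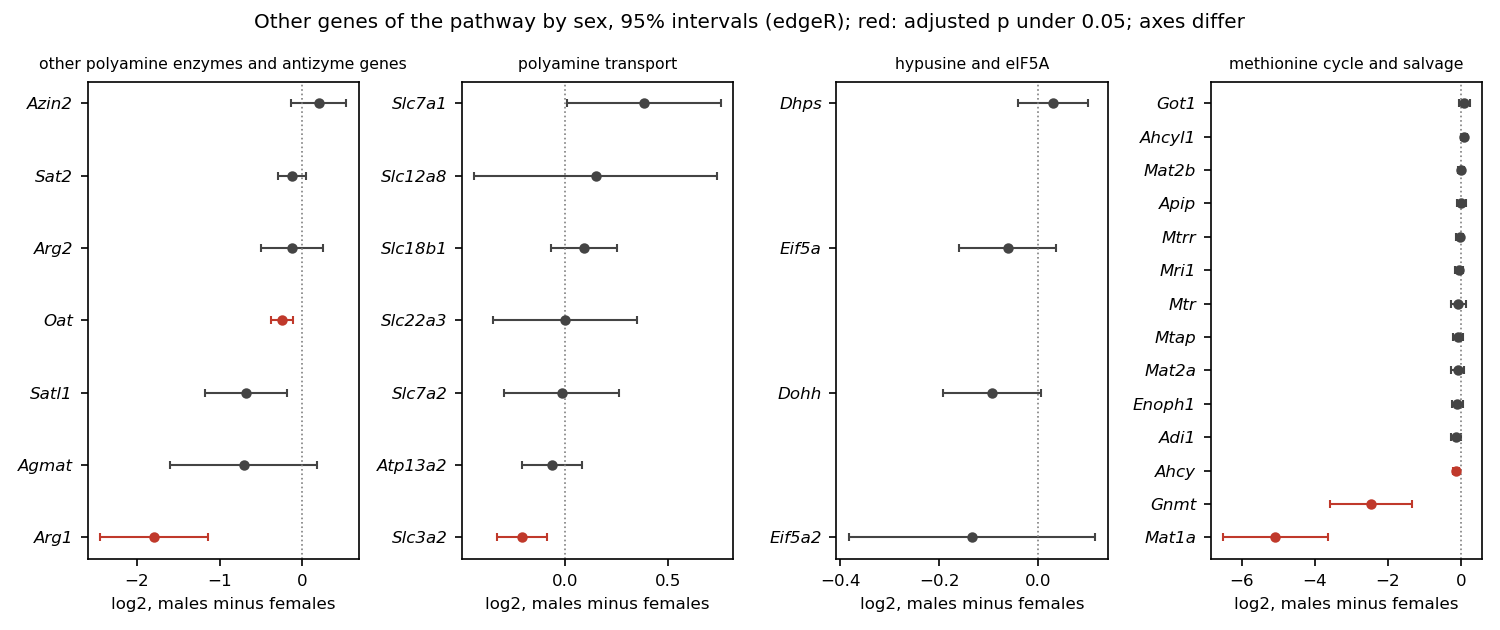
Fitted log2 difference, males minus females (horizontal axes, which differ between panels), with 95% intervals for the 32 tested pathway genes in 4 lists, with red points where the adjusted p is under 0.05. The 6 red points all lie below 0, and those of Mat1a, Gnmt and Arg1 lie farthest out.

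Genes of androgen action and of muscle loss were listed because both are known to touch polyamine genes in mouse muscle. These lists too were drawn up with earlier results of these data known, so their shares of calls are a description. Of 7 tested genes of androgen action, Srd5a1 (log2 −0.96, edgeR adjusted p = 4.10e-05), which makes dihydrotestosterone, and Myc (log2 −0.59, edgeR adjusted p = 0.0159), whose protein binds the E-box, were called lower in males, beside 5.17% of all genes called lower. With the hepatocyte covariate neither was called (Srd5a1 log2 −0.44, edgeR adjusted p = 0.447, and Myc log2 −0.92, edgeR adjusted p = 0.0904). Srd5a1 had a median of 3.43 CPM in Female Chow, 2.26 CPM in Female HFHS, 1.38 CPM in Male Chow and 1.51 CPM in Male HFHS. The hepatocyte sums had medians of 528, 188, 49.6 and 42.9 CPM in the same groups. A link between these levels was not tested. Of 9 tested genes of denervation and atrophy, 3 were called lower in males, namely Cdkn1a (log2 −1.47, edgeR adjusted p = 0.00124), Gadd45a (log2 −0.84, edgeR adjusted p = 0.00101) and Myog (log2 −0.58, edgeR adjusted p = 0.00142), again beside 5.17% of all genes. Chrna1 and Trim63 had log2 −0.32 and −0.11, and Ncam1, Runx1, Hdac4 and Fbxo32 had log2 0.13, 0.26, 0.19 and 0.16, with 0 of these 6 called. With the hepatocyte covariate Cdkn1a and Myog stayed called and Gadd45a did not (log2 −1.07, edgeR adjusted p = 0.0702). In mice, raised Cdkn1a lowers Smox in muscle. Smox went with Gadd45a (r 0.45) and Cdkn1a (r 0.37) within groups over the 23 rats, and ran opposite to Myog (r −0.30).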

How the data were processed

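The members and gene lists were chosen with earlier results of these data known. Per the labels and the study's methods, the authors used fastp for trimming, STAR 2.7.6a for alignment to rn6 and SeqMonk for quantification over merged transcripts. The deposited values are raw counts per gene and rat, without normalization. The annotation release, the treatment of strand and of reads with several positions are not given in the sources used here. Replicates are single rats, grouped by the codes of the count columns. The 16 entries without a name (at most 0.000294% of counts) were left out, and symbols with several entries (129) were kept apart.

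The analysis used edgeR 4.0.16 under R 4.3.3. The steps were filterByExpr by group, TMM scaling, 1 model with 4 group means, robust quasi-likelihood F tests and Benjamini-Hochberg adjustment over 13365 genes with a threshold of 0.05. Log2 levels used a prior count of 2. Alternatives were RLE size factors, a mean count above 0.1, 1 CPM in at least 5 rats, DESeq2 1.42.0, limma-voom (limma 3.58.1) with quality weights, the diets of the titles, leaving out the 3 conflicting rats or each rat in turn, a hepatocyte covariate (mean of 20 markers), a replicate block and each sex fitted alone. The Myh7 level as a covariate, and a test of Srm with the lower filter, were added after seeing the data. The pipeline was tested on simulated data. All 10 members were described. Pathway genes past the threshold were named, or otherwise the 2 with the smallest p of a list, as were up to 4 genes of each context list (Mat2a, Myh7, Actn3, the uncalled genes of the atrophy list and the correlation of Myog with Smox were added for reference after their values were seen) and the 3 genes most like a called member. Promoter sequences came from RefSeq (GRCr8) and were not placed on rn6. No paired design was used.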

Additional observations from a re-analysis of the deposited data

Results flagged for a closer look

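In 5 of the 36 combinations of a tested polyamine gene and a group, 1 rat stood apart from the others of its group by Dixon's test at the 95% level, and chance marks about 1 in 20 such groups. Odc1 in Female Chow rat 228 was at 91.6 CPM, against 63.1 to 70.5 CPM in the other 4 rats. Paox in the same rat 228 was at 9.32 CPM, against 5.55 to 6.38 CPM. Paox in Male HFHS rat 105 was at 10.7 CPM, against 7.16 to 8.29 CPM. Sat1 in Female HFHS rat 225, a rat whose title and code name different diets, was at 19.3 CPM, against 10.8 to 12.5 CPM. Oaz1 in Male HFHS rat 102 was at 356 CPM, against 397 to 420 CPM.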

How the results depend on the processing

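The count of polyamine genes called by sex was 1 (Smox) in the main fit and in every alternative except those named next. It was 0 with the hepatocyte covariate, and it ran from 0 to 2 when each rat was left out in turn, being 0 without Female Chow rat 229 and 2, with Paox, without Female Chow rat 228. The Smox difference ran from log2 −0.32 to −0.25 over these 23 fits. With DESeq2 the Smox difference had an adjusted p of 0.0132 and with limma-voom 0.0136. The count by sex on HFHS was 1 (Amd1) with the diets of the titles and 1 (Smox) with the Myh7 covariate, an alternative added after seeing the data, and the other counts stayed at 0 throughout, leaving out each rat included (0 to 0). Reversed signs, none of them called, were Paox by sex with the hepatocyte covariate (log2 −0.022), Sms by diet in females with the diets of the titles (log2 0.043) and Mat1a by sex on chow with the hepatocyte covariate (log2 0.25). Over all genes, the hepatocyte covariate took the calls by sex on HFHS from 645 to 112 and on chow from 230 to 11, the titles took those on HFHS to 1355 and the Myh7 covariate to 1036, and the cause was not tested. For the pathway genes, the same alternatives were added after seeing the data. Ahcy by sex was not called without the 3 conflicting rats, nor Slc3a2 with the block. Gnmt on HFHS was not called in 15 of the 21 fits without 1 rat that still tested it.

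The numbers in the sample titles did not pair the rats. Over 32 pairs with the same number, deviations from the group means correlated at −0.27 to 0.26, and 4 of 23 rats correlated best with their own number. With the number as a replicate block, Smox by sex was log2 −0.29 (edgeR adjusted p = 0.0258) and 1 polyamine gene was called, while over all genes 964 were called in place of 1199, and 378 in place of 645 on HFHS. Srm results were taken only from the edgeR fit with the filter at a mean count above 0.1, and its 1 to 12 counts per rat left a standard error of log2 0.26 by sex. DESeq2 used the same filter, but its Srm result was not read out and is not part of the counts given for DESeq2.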
